A study of Mus musculus with 6 samples.

Results

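A set of 10 genes little known in sensory ganglia was lower in every lumbar dorsal root ganglion library of CreER-positive mice than in any control library. They are Lrrc31, Sh2d4a, Hal, Nxpe2, Smyd1, Bnc1, C1ql4, Ceacam10, Cfap58 and 4932435O22Rik, 10 of the 36528 NCBI genes counted. They were picked from the difference between the groups itself, so their falls are described here and not tested. All 6 mice were female, 12 to 18 weeks old and homozygous for a floxed Scn9a gene (Scn9a loxP/loxP), which encodes the sodium channel Nav1.7. The CreER-positive mice (n = 3) also carried pCAAG.Cre.ER, a tamoxifen-inducible Cre recombinase that, by the series title, served for a global knockout, and the controls (n = 3) did not. The sources used here name no tamoxifen dose or time. Each library came from the 6 pooled L4 to L6 ganglia of 1 mouse. The question of the comparison is how ganglion transcripts differ when CreER is added to the floxed background.

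Dorsal root ganglia hold the cell bodies of sensory neurons together with satellite glia, Schwann cells, vessels, connective tissue and a few leukocytes. Bulk RNA sums all of these cells. For every gene below, fewer cells of a type and less RNA per cell therefore cannot be told apart. The 10 genes are known mainly from other tissues: skin and liver for Hal, striated muscle for Smyd1, keratinocytes and germ cells for Bnc1, sperm flagella for Cfap58.

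Total counts ranged from 40237131 to 63332040 per library. Scn9a itself had 557 to 635 CPM (counts scaled to library size with TMM factors) in controls and 564 to 620 in CreER-positive libraries, so its gene-level count does not check the group labels. Pan-neuronal markers summed to 7209 to 7876 CPM in controls and 7043 to 8496 CPM in CreER-positive libraries, so all 6 libraries carried neuronal RNA. Control replicate 2 stood apart in skeletal muscle transcripts, with Myh4, a fast myosin heavy chain, at 10.8 CPM against at most 0.862 CPM elsewhere. CreER-positive replicate 3 stood apart in markers of connective tissue, vessels and blood, whose values are given beside the library differences of the 10 genes. Over all 22043 tested genes, edgeR's quasi-likelihood test called 160 at a Benjamini-Hochberg adjusted p below 0.05, 36 higher and 124 lower. Without CreER-positive replicate 3 the split turned, with 333 higher and 235 lower. The median log2 fold change of all tested genes was 0.00.

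The 10 genes lie on 9 chromosomes of GRCm38. Bnc1 (chromosome 7, 81966657 to 81992299) and Ceacam10 (chromosome 7, 24777167 to 24784656) share one but are 57.2 Mb apart. The others are Lrrc31 (chromosome 3, 30678554 to 30699843), Smyd1 (chromosome 6, 71213940 to 71262281), Sh2d4a (chromosome 8, 68276528 to 68347704) and Nxpe2 (chromosome 9, 48318003 to 48353449). Hal lies on chromosome 10 (93488768 to 93516761), 4932435O22Rik on chromosome 11 (114413405 to 114448860), C1ql4 on chromosome 15 (99084086 to 99090674) and Cfap58 on chromosome 19 (47937712 to 48035379). Of the 10 genes 9 are protein coding, and 4932435O22Rik is a long non-coding RNA. Annotated exons cover 3.58% (Cfap58) to 22.3% (C1ql4) of the deposited width of each gene. Whether reads were counted over that whole width is not given in the sources used here.

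RefSeq promoter windows (250 bases before to 50 after the start, GRCm38.p6) were found for 9 of the 10 genes, and they were not alike in composition. For Nxpe2 (48340849 to 48341148) and C1ql4 (99087679 to 99087978) the RefSeq start lies inside the gene span given above, so their windows do not precede the outermost start. The CpG number ranged from 3 in the windows of Lrrc31 and Smyd1 to 50 in that of Bnc1. At most 4 CpG occurred in 4 of the 9 windows, against 17.2% of the 15195 windows of tested genes, whose median was 17. That limit coincides with the highest of these 4 counts, so the difference in share is a description and no test. Fewer CpG than that median occurred in 6 of the 9 windows. The motifs below were searched on both strands, and no match overlapped one of another motif. The TATA box TATAAA occurred in the windows of Hal and Smyd1 (14.2% of all 27025 windows), in both at position -28 from the start as its reverse complement. The RUNX motif TGTGGT occurred in those of Nxpe2 and Smyd1 (16.9% of all), and the E-box CANNTG in those of Lrrc31, Hal, Ceacam10 and 4932435O22Rik (72.1%). The NFAT motif GGAAA occurred in Lrrc31, Nxpe2, Smyd1 and Ceacam10 (61.3%), and the CRE TGACGTCA in none (1.88%). No motif was present in all 9 windows. The 250 bases before the start are shown 5′ to 3′ for 4 genes, the pair with a TATA box at the same position and 2 with E-boxes near the start. Capitals mark the reverse complement of TATAAA in the first pair (chr10:93488518-93488767, plus strand, and chr6:71262282-71262531, minus strand) and CANNTG in the second (chr3:30699844-30700093, minus strand, and chr11:114448861-114449110, minus strand).
Hal: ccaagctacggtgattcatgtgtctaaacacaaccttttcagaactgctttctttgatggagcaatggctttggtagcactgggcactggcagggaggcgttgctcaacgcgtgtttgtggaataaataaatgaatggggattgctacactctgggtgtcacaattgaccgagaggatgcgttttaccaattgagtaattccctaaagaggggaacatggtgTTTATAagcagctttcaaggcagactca
Smyd1: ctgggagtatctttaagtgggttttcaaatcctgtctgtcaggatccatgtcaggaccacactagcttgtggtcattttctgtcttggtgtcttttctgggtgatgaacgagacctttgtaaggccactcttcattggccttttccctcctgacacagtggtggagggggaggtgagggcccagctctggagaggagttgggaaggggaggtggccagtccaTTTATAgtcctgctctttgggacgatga
Lrrc31: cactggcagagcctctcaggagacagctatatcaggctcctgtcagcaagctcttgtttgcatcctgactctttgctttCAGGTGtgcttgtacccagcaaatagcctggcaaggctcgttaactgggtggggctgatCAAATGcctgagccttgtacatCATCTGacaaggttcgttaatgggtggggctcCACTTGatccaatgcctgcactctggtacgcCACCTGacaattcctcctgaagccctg
4932435O22Rik: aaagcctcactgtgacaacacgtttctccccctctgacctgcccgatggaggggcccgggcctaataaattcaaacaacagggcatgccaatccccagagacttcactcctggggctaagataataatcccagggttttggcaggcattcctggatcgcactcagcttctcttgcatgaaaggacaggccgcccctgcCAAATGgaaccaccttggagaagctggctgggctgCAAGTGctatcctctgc

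Of the 10 genes, 10 passed the filter on low counts and had groups that did not overlap, the property that chose them, against 9.3% of tested genes with no overlap in this direction. Of the 10, 10 were also among the genes called lower by edgeR, against 0.563% of tested genes. All 10 were among those called by DESeq2, whose share of 1.93% counts both directions (156 genes higher and 269 lower). These shares are a description, since the rule used this contrast. Their log2 fold changes ran from -1.77 to -0.82 with a median of -1.60. In 9 of them the CreER-positive mean was 29.1% to 35% of the control mean, and in Nxpe2 it was 56.5%. Means below are ± SD over n = 3 mice, and a standard error (SE) of a log2 fold change comes from the edgeR fit.

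**Figure D1:**
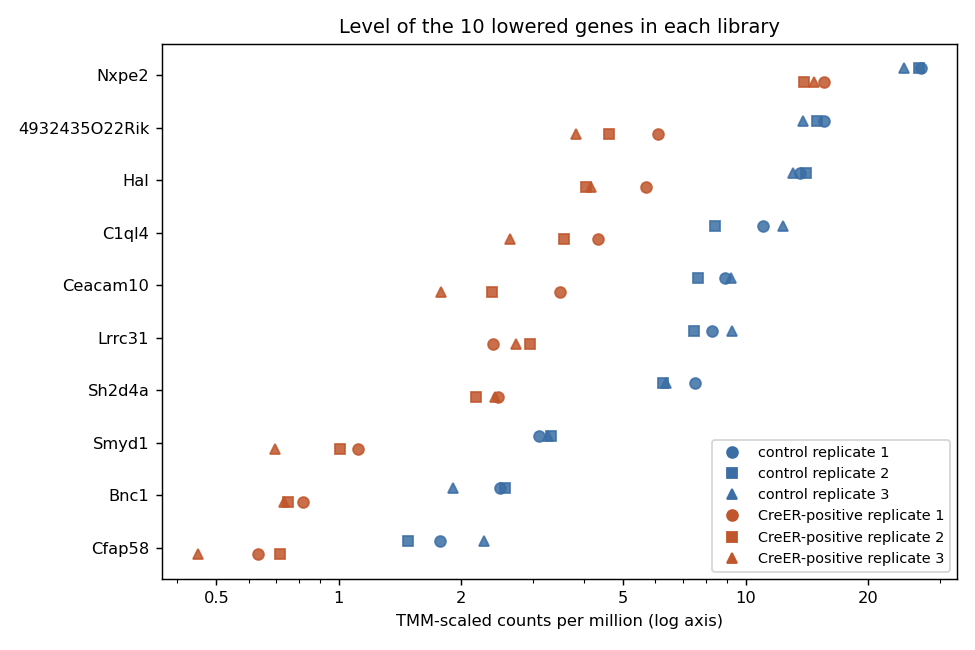
Level of each of the 10 genes in each of the 6 libraries, in TMM-scaled CPM on a logarithmic axis; colours are the groups and symbols the replicates. Cfap58, the lowest, spans 0.451 to 2.28 CPM and Nxpe2, the highest, 13.9 to 27.1 CPM, and within each gene the 3 CreER-positive points lie to the left of the 3 control points.

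Hal encodes histidine ammonia-lyase, the first enzyme of histidine breakdown, which makes urocanate. Control replicates 1 to 3 had 13.6, 14.1 and 13.1 CPM of Hal and CreER-positive replicates 1 to 3 had 5.70, 4.05 and 4.17 CPM. The controls lay close together, and CreER-positive replicate 1 was the highest of its group but still far from the lowest control. The control mean of Hal was 13.6 ± 0.511 CPM and the CreER-positive mean 4.64 ± 0.920 CPM, and the log2 fold change was -1.55 ± 0.13 (SE).

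C1ql4 and Ceacam10 were similarly low. C1ql4 encodes a small secreted protein with a C1q domain, one of the ligands of the adhesion receptor ADGRB3. It had 11.1, 8.39 and 12.4 CPM in control replicates 1 to 3 and 4.33, 3.58 and 2.63 CPM in CreER-positive replicates 1 to 3. The controls were the more scattered of those listed so far, with replicate 2 the lowest, and the lowest control was 1.94 times the highest CreER-positive library. The log2 fold change of C1ql4 was -1.59 ± 0.19 (SE). Ceacam10, a member of the carcinoembryonic antigen family of cell adhesion molecules, had 8.93, 7.65 and 9.23 CPM in controls and 3.50, 2.38 and 1.78 CPM in CreER-positive libraries. Here the CreER-positive libraries differed most from one another, with a coefficient of variation of 34.1% where counting error alone gives 8.16%. Ceacam10 had a log2 fold change of -1.74 ± 0.20 (SE).

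Smyd1 and Bnc1 encode nuclear proteins. Smyd1 is a histone methyltransferase of striated muscle that also takes part in myosin assembly. Its CPM were 3.10, 3.32 and 3.27 in the controls and 1.12, 1.01 and 0.695 in the CreER-positive libraries. The controls agreed to within 3.62% (coefficient of variation), less than the 7.62% that counting error alone gives at this depth. Control replicate 2, with its muscle transcripts, was not set apart from the others. Smyd1 had the largest fall of the 10 genes, -1.77 ± 0.17 (SE) on the log2 scale, and -1.75 without control replicate 2. Bnc1, basonuclin 1, is a zinc finger protein of keratinocytes and germ cells. Bnc1 had 2.48, 2.56 and 1.91 CPM in controls against 0.817, 0.748 and 0.733 CPM, a log2 fold change of -1.58 ± 0.18 (SE). Counts of Bnc1 were as low as 39 in a library, and its CreER-positive libraries varied by 5.84%, less than the 15% that counting error alone gives at this depth.

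Lrrc31 and Sh2d4a are intracellular proteins of epithelia and lymphoid cells, with a leucine-rich repeat and an SH2 domain. Lrrc31 had 8.26, 7.47 and 9.28 CPM in controls and 2.40, 2.94 and 2.72 CPM in CreER-positive mice. Sh2d4a had 7.52, 6.28 and 6.37 CPM in controls and 2.47, 2.18 and 2.42 CPM in CreER-positive mice. In both genes the CreER-positive libraries lay close together, and the lowest control was 2.54 (Lrrc31) or 2.55 (Sh2d4a) times the highest CreER-positive library. The log2 fold change was -1.63 ± 0.12 (SE) for Lrrc31 and -1.51 ± 0.12 (SE) for Sh2d4a.

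Cfap58 encodes a coiled-coil protein needed for the sperm flagellum. It was the least counted of the 10 genes, with 72, 82 and 144 reads in control replicates 1 to 3 and 38, 44 and 24 in CreER-positive replicates 1 to 3. These are 1.77, 1.48 and 2.28 CPM against 0.633, 0.716 and 0.451 CPM, so control replicate 3 stood highest and CreER-positive replicate 3 lowest. The log2 fold change of Cfap58 was -1.61 ± 0.23 (SE), the least precise of the 10. Without control replicate 1, or without control replicate 3, Cfap58 was no longer among the genes called by edgeR. Because the rule used this contrast, staying among or leaving the called genes is no test of any of the 10.

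Nxpe2, whose product has a neurexophilin-like and an esterase-like domain, and the non-coding 4932435O22Rik were the most counted. Nxpe2 had 27.1, 26.8 and 24.5 CPM in controls and 15.6, 13.9 and 14.7 CPM in CreER-positive libraries, the smallest fall of the 10 genes (-0.82 ± 0.07, SE) and the most precise. The long non-coding RNA 4932435O22Rik had 15.6, 15 and 13.8 CPM in controls against 6.10, 4.62 and 3.83 CPM, a log2 fold change of -1.61 ± 0.15 (SE). Nxpe2 marks the weak edge of the choice. Just inside it among lowered genes without overlap and with at least 1 CPM were 5033421B08Rik (-0.84), Fyb2 (-0.84) and Lrrn4 (-0.83), and just outside Chodl (-0.82), C7 (-0.81) and Gm13373 (-0.81). Genes at least as low as Nxpe2 with at least 1 CPM and no overlap numbered 58, and Wfdc2 (-2.14), Gm36090 (-1.88) and Gm14317 (-1.80) lay below all 10.

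Set against gene length, the order of levels changed. By the authors' deposited RPKM, which divide by the whole gene width, C1ql4 (control mean 1.64) and Ceacam10 (1.18) were the highest, followed by Nxpe2 (0.754), Hal (0.498), 4932435O22Rik (0.428) and Lrrc31 (0.408). Sh2d4a (0.0968), Bnc1 (0.0927), Smyd1 (0.0685) and Cfap58 (0.0193) were lower. Within that order 4932435O22Rik and Lrrc31, and Sh2d4a and Bnc1, differed by less than the spread between control libraries.

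**Figure D2:**
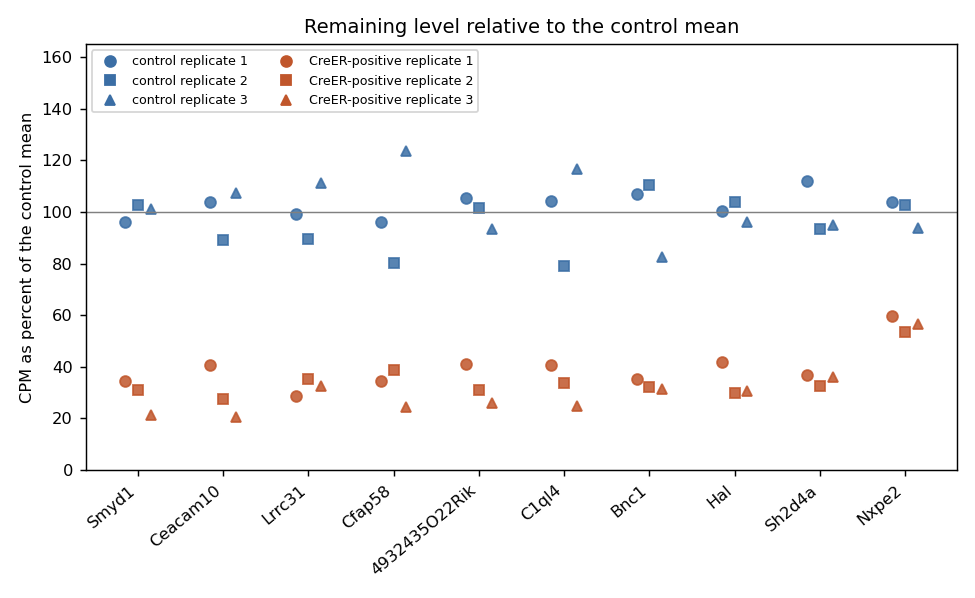
Level of the 10 genes in each library as a percent of that gene's control mean (line at 100), ordered by log2 fold change from Smyd1 to Nxpe2. CreER-positive replicate 3 (orange triangle) is the lowest of its group in 6 genes and replicate 1 (orange circle) the highest in 8.

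The CreER-positive libraries differed in how low the 10 genes were. Against each gene's control mean, the median log2 value over the 10 genes was -1.37 in CreER-positive replicate 1, -1.63 in replicate 2 and -1.83 in replicate 3. Replicate 3 was the lowest of its group in 6 genes, replicate 2 in 3 (Sh2d4a, Hal and Nxpe2) and replicate 1 in Lrrc31 alone. Replicate 1 was the highest in 8 genes. The same libraries had means of -0.32, -0.45 and -0.57 over 7 markers of C-fibre low-threshold mechanoreceptors, touch neurons without myelin. They had -0.23, -0.28 and -0.34 over 20 markers of non-peptidergic nociceptors and pruriceptors, and 0.03, 0.04 and -0.18 over 12 pan-neuronal markers. Peptidergic nociceptor markers had 0.16, 0.06 and 0.07, and large-diameter A-fibre neuron markers 0.09, 0.12 and -0.11. Markers of some other cells were highest in replicate 3. Fibroblast markers had means of -0.18, 0.13 and 0.65 in replicates 1, 2 and 3, and endothelial and mural markers -0.21, 0.05 and 0.42. Satellite glia markers had -0.01, 0.06 and 0.25, leukocyte markers -0.25, -0.17 and 0.31 and erythroid markers -0.04, -0.11 and 1.10. Highest in replicate 2 were Schwann cell and myelin markers (-0.02, 0.24 and 0.12), keratinocyte markers (-0.03, 0.12 and 0.01) and skeletal muscle markers (-1.72, -1.11 and -1.28). The part of these cell types in the falls was not tested. Without replicate 3 the median log2 fold change of the 10 genes was -1.50. When libraries were scaled by the summed pan-neuronal markers, a setting chosen after seeing the data, the median fall of the 10 genes was -1.68 in place of -1.60.

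Markers of those neurons that were themselves lower fell less than most of the 10 genes. The 10 were chosen as strongly lowered in this contrast, so that order follows from the choice. Mrgprd, the receptor that defines one class of non-peptidergic nociceptor, went from 139 ± 4.69 to 59.8 ± 4.65 CPM (-1.22, edgeR adjusted p = 0.000249, lower in 3 of 3). Slc17a8, the vesicular glutamate transporter VGLUT3 of the touch neurons, had a log2 fold change of -1.38 (edgeR adjusted p = 0.00337). All lists of markers, relatives and partners were chosen with earlier results of these data known, so their calls are no independent evidence. Of the 20 non-peptidergic markers tested 5 fell by edgeR (median -0.17), among them Rasgrp1 (-0.73), a Ras activator, and Prkcq (-0.68), a protein kinase C. Runx1 (-0.43) and Plxnc1 (-0.43) fell too but lost the call in 4 and 5 of 6 fits that left out 1 library, with adjusted p up to 0.197 and 0.235. Among the 7 touch neuron markers 4 fell (median -0.50), Slc17a8, Pou4f2 (-0.75), Th (-0.53) and Tafa4 (-0.50), the last 2 losing the call in 3 and 4 of those 6 fits (up to 0.12 and 0.132). DESeq2 called 2 more of the non-peptidergic markers, Mrgpra3 (0.29, higher) and Scn11a (-0.23). Among the markers called by neither tool were Mrgprb5 (-0.97), Cdh9 (0.35), Zfp521 (-0.29) and Piezo2 (0.06). The unadjusted edgeR p was below 0.05 in 11 of the 20 non-peptidergic and 6 of the 7 touch neuron markers. The share of all tested genes below that p was not counted, so no such count, here or below, can be read as an excess. Across all marker lists 145 genes were tested and 11 fell by edgeR (7.59% called, against 0.726% of all tested genes). Markers of peptidergic nociceptors, A-fibre neurons and all neurons had 0 of 11, 13 and 12 called by edgeR. Their counts were 5, 3 and 3 at an unadjusted p below 0.05 and 1, 0 and 1 by DESeq2, and their medians were 0.10, 0.10 and -0.02. The DESeq2 calls were Tac1 (0.39), a peptide gene of peptidergic neurons, and Isl2 (-0.42), a homeobox gene. Among markers of non-neuronal cells Rgs5 of mural cells fell (-0.41, edgeR adjusted p = 0.0293, lost in 5 of 6 fits without 1 library, up to 0.171), 1 of 8 endothelial and mural genes (median 0.15). The following lists had 0 called by edgeR or DESeq2. Satellite glia had 8 tested (median 0.07, 1 at an unadjusted p below 0.05), Schwann cells 8 (0.11, 2), fibroblasts 8 (0.25, 0), leukocytes 9 (-0.10, 0), adipocytes 5 (-0.26, 1) and erythroid cells 5 (0.40, 0).

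Some of the tissues in which the 10 genes are best known, and mesothelium, were checked by their own markers. Liver, germ cells and sperm had no list. Skeletal muscle markers, 18 of 18 with reads, summed to 18.9 to 122 CPM in controls and 19.5 to 23.9 CPM in CreER-positive libraries. The high value is control replicate 2 alone. Of 15 tested 0 were called by edgeR and 0 by DESeq2, with 4 at an unadjusted p below 0.05, and all 15 estimates were below 0 (median -1.25). Keratinocyte markers summed to 5.28 to 6.42 CPM in controls and 5.65 to 6.00 CPM in CreER-positive libraries, with Krt5 at 0 counts in all 6, and 0 of 4 were called by edgeR or DESeq2 or had an unadjusted p below 0.05 (median -0.04). Foxj1, the master transcription factor of motile cilia, had 13.2, 14.2 and 16.8 CPM in controls and 17.8, 18.1 and 12.9 CPM in CreER-positive libraries, so its groups overlapped. In its list 0 of 6 were called by edgeR or DESeq2, with 1 at an unadjusted p below 0.05 (Pifo, 0.34) and a median of 0.16. Mesothelial markers summed to 97.2 to 111 CPM in controls and 80.4 to 96.2 CPM in CreER-positive libraries, nearly all of it Gpm6a, a gene of neurons as well (means 97.6 and 82.7 CPM). Of 6 tested 1 fell, Lrrn4 (-0.83, edgeR adjusted p = 0.0293), a call lost in 4 of 6 fits without 1 library (up to 0.146), and 3 had an unadjusted p below 0.05 (median -0.52). The part of these tissues in the falls of the 10 genes was not tested.

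Few relatives and partners of the 10 genes passed the test. Of 101 tested, 1 fell and 2 rose by edgeR (2.97% called, against 0.726% of all tested genes), and 21 had an unadjusted p below 0.05. All 3 calls were lost when any 1 control was left out, with 0 calls left, whereas 8 were made without CreER-positive replicate 3. The gene that fell was Nxpe4, a relative of Nxpe2 (65.3 ± 2.72 to 49.7 CPM, -0.40, edgeR adjusted p = 0.0310, up to 0.178 without 1 library). Those that rose were Jup (0.61, 0.0116, up to 0.0918), which encodes the junction protein plakoglobin, and Nrxn3 (0.34, 0.0210, up to 0.142), a presynaptic neurexin. Every relative that was called thus changed by less than the smallest fall among the 10 genes, which were themselves chosen for large falls in this contrast.

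**Figure D3:**
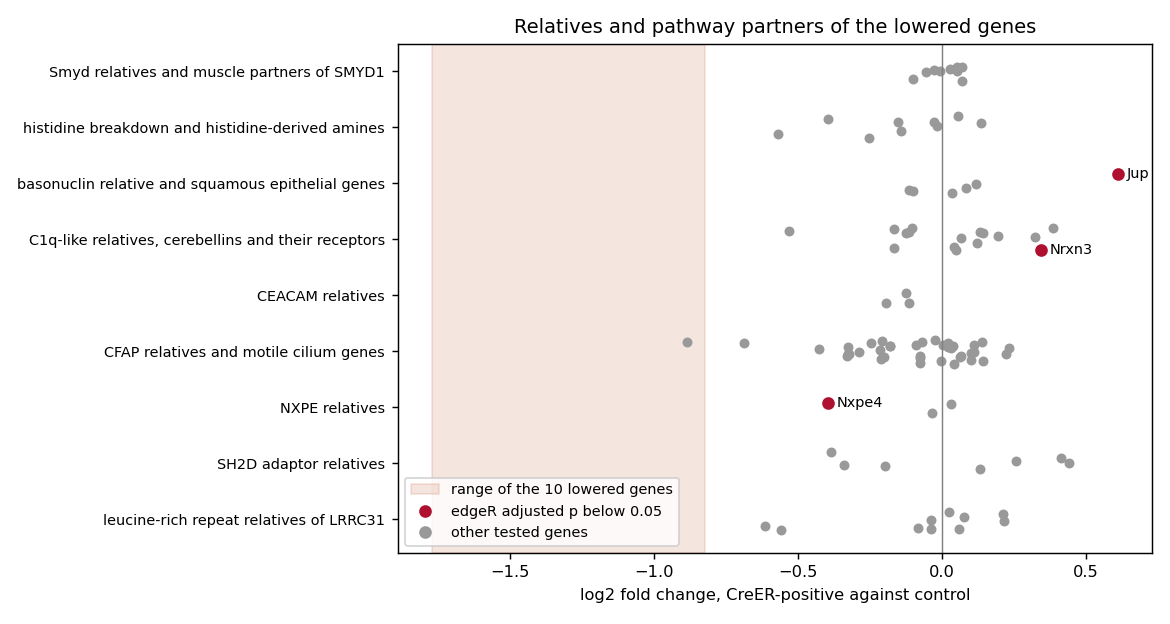
Log2 fold changes (CreER-positive against control) of the tested relatives and partners, one row per list, with genes called by edgeR in red and named; vertical spread within a row has no meaning. The shaded band is the range of the 10 lowered genes (-1.77 to -0.82), and the 3 called genes lie outside it.

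The list around Hal gave no call. Its breakdown enzymes were Uroc1, Ftcd and Amdhd1, the last with too few reads to be tested. The others were genes of histidine-derived amines and dipeptides and the histidyl-tRNA synthetases Hars and Hars2. Of the 11 listed genes 9 were tested, 0 were called by edgeR or DESeq2 and 2 had an unadjusted p below 0.05. These were Hdc, which makes histamine (2.08 to 1.42 CPM, -0.57, edgeR adjusted p = 0.323), and Carns1, which makes carnosine (-0.15, 0.443), with Cndp1 at -0.25, and the list's median was -0.14. The muscle partners of SMYD1 and the other SMYD methyltransferases had 0 of 9 called by edgeR or DESeq2, none with an unadjusted p below 0.05 and a median of 0.03, with Mef2c at 0.07, Smyd4 at 0.07 and Mef2a at -0.06. Among 16 C1q-like genes, cerebellins and their receptors only Nrxn3 was called by edgeR. The receptors Grid1 (0.32) and Adgrb1 (-0.17) had unadjusted p values below 0.05 but were not called. Bnc2, the one relative of Bnc1, had 113 ± 11.2 and 105 CPM (-0.10, edgeR adjusted p = 0.743). Its list held 12 genes, Bnc2 and squamous epithelial genes, of which only 6 were tested. Jup alone was called there (median 0.06), with Cdh1 at 0.08 and Sfn at 0.12.

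Of the other families, 3 CEACAM genes were tested and 0 called by edgeR or DESeq2, with 0 at an unadjusted p below 0.05 (Ceacam1 -0.12, Ceacam2 -0.19, Ceacam16 -0.11). Ceacam11, Ceacam12, Ceacam13 and Ceacam14 had 0 counts in all libraries. The 38 cilium genes had 0 called by edgeR or DESeq2, 6 at an unadjusted p below 0.05 and a median of -0.07, with Cfap206 at 0.23, Cfap69 at -0.21 and Dnah5 at -0.89 on under 1 CPM. Sh2d4b, the like-named relative of Sh2d4a, had 27.8 and 24.2 CPM (-0.20, edgeR adjusted p = 0.402), and of 7 SH2D genes 0 were called by edgeR, 3 had an unadjusted p below 0.05 and 1 was called by DESeq2, Sh2d5 (0.41, DESeq2 adjusted p = 0.00486). Of 10 leucine-rich repeat genes 0 were called by edgeR or DESeq2 and 4 had an unadjusted p below 0.05, Rnh1 (0.21), Lrrc34 (-0.56), Lrrc71 (0.22) and Lrriq4 (-0.62). Nxpe3 (0.03) and Nxpe5 (-0.03) were the other NXPE genes tested.

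Position on the chromosome was not used in the choice, and few neighbours passed the test. Of 51 genes within 100 kb, 32 were tested and 2 fell by edgeR (6.25%, against 0.726% of all tested genes), with 6 at an unadjusted p below 0.05. Both called neighbours overlap one of the 10 genes. Their median log2 fold change was -0.06, and 22 of the 32 estimates were below 0. Next to Lrrc31 lie Lrriq4 (6.12 kb away, 0.675 to 0.428 CPM, -0.62) and Lrrc34 (30.7 kb away, 2.55 to 1.71 CPM, -0.56), with edgeR adjusted p values of 0.432 and 0.266, and on the other side Sec62 (-0.06). Amdhd1, another histidine-breakdown gene 6.58 kb from Hal, had too few reads to be tested, so the nearest tested there was Ccdc38 (0.13), with Lta4h (-0.04) on the other side. The nearest tested genes to Smyd1 were Krcc1 (0.05) and Mir8112 (0.13) on one side and Thnsl2 (-0.06) on the other. Next to the others lay Csgalnact1 (-0.14) and Psd3 (-0.12) at Sh2d4a, Hdgfl3 (-0.09) at Bnc1, Troap (-0.18) and Dnajc22 (-0.39) at C1ql4, Cd177 (-0.02) and Rps19 (0.09) at Ceacam10, Itprip (0.06) at Cfap58 and Gm31724 (-0.03) at 4932435O22Rik. None of these was called by edgeR.

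**Figure D4:**
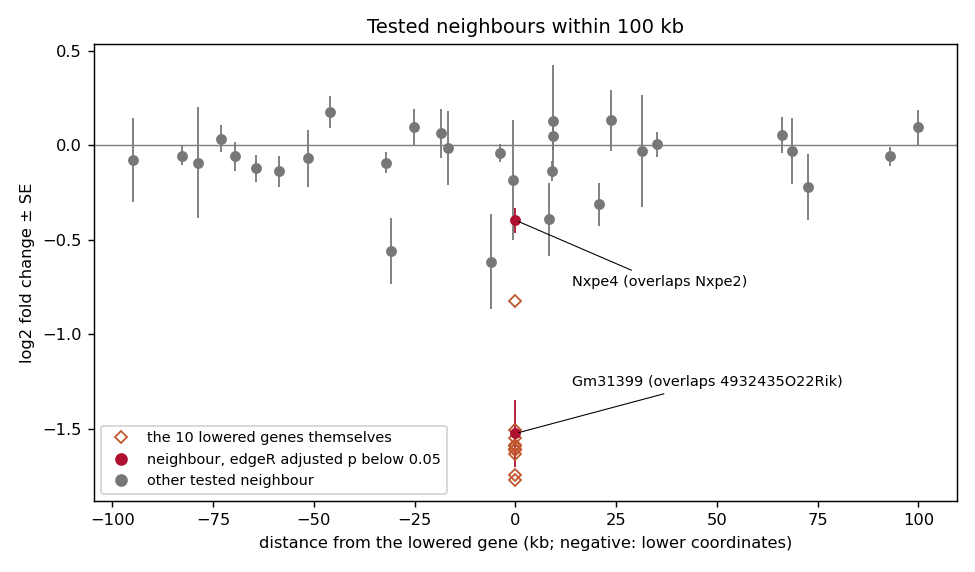
Log2 fold change ± SE of tested genes within 100 kb of one of the 10 lowered genes, by distance in kb (negative: lower coordinates), with genes called by edgeR in red and the 10 genes as open diamonds at 0. Apart from Nxpe4 and Gm31399, which overlap a lowered gene, no neighbour was called.

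The first overlapping pair is Nxpe2 and Nxpe4. In the GRCm38.p6 annotation Nxpe4 spans 48162004 to 48400025 on chromosome 9 and holds the whole of Nxpe2. The deposited width of Nxpe4 is 167331 bases against a span of 238022, so the gene model used for its count differs. Nxpe4 had 67.6, 66.1 and 62.3 CPM in controls and 46.3, 49.0 and 53.7 CPM in CreER-positive libraries. Its groups did not overlap either, but its highest CreER-positive library was replicate 3, whereas that of Nxpe2 was replicate 1. The second pair is 4932435O22Rik and Gm31399, a predicted gene (chromosome 11, 114422491 to 114434189) inside it. Gm31399 had 3.64, 3.54 and 3.38 CPM in controls and 1.5, 1.25 and 0.883 CPM in CreER-positive libraries, a log2 fold change of -1.52 (edgeR adjusted p = 0.00494, held in 6 of 6 fits without 1 library). Whether reads in the shared stretches were counted for one gene or both was not tested, so neither fall of a pair stands as independent of the other.

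Genes whose 6 values most resembled each of the 10 were found by the root mean square difference of log2 CPM against the control mean, over the 6 libraries, among tested genes with at least 1 CPM. The measure contains the group difference, so other lowered genes are close by construction. The nearest to Hal was Pax5, a transcription factor gene best known from B cells (4.22 to 1.44 CPM), at 0.0569, and Pax5 was also among the 2 nearest to Bnc1 (0.144) and 4932435O22Rik (0.0984). Gm14317 was nearest to Smyd1 (0.109), Ceacam10 (0.147) and 4932435O22Rik (0.0685). Nearest to Nxpe2 were Adam5 (0.0582) and Htr4, a serotonin receptor gene (0.0611, 29.4 to 16.8 CPM). Sh2d4a and Bnc1 were each the nearest to the other (0.136), as were C1ql4 and Cfap58 (0.156). Ceacam10 was the second nearest to C1ql4 (0.176) and Sh2d4a the nearest to Lrrc31 (0.199), but not the reverse.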

How the data were processed

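RNA of 6 libraries was compared, 3 per group, grouped by the genotype label. Reads were aligned with GSNAP to GRCm38 (mm10), per the submitters' processing notes; how reads were counted, with which annotation and strand, is not given in the sources used here. Raw counts, widths and RPKM of 36528 NCBI genes were deposited, per the file headers. The deposited RPKM were used for levels per length only. Identifiers were matched to symbols of GRCm38.p6 (31049 matched), and RefSeq gave promoter windows.

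Low counts were removed by filterByExpr (22043 genes left), and counts were scaled with TMM factors and tested with edgeR 4.0.16 (R 4.3.3, quasi-likelihood, Benjamini-Hochberg over all tested genes, threshold 0.05). The step was tested on simulated data. The 10 genes and all lists (9 of relatives and partners, 16 of markers) were chosen with earlier results of these data known. Named from each list were the called genes and up to 3 others by unadjusted p; nearest tested neighbours on each side and the 2 nearest profiles (0.1 CPM added before log2) were named too. Alternatives were DESeq2 1.42.0, limma-voom 3.58.1, other scalings, filters and windows, and left-out libraries. No 2 libraries of a group agreed within counting error. Over tested genes, chi-square per degree of freedom was 5.99 to 9.05 between control libraries and 35.7 to 44.3 between CreER-positive libraries. The result of 1 listed gene is not reported here.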

Additional observations from a re-analysis of the deposited data

How the results depend on the processing

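The log2 fold change of each of the 10 genes was recomputed under 15 alternatives, 150 values in all, and ran from -2.03 to -0.78. The sign could not change when a library was left out, because the genes were chosen for groups that do not overlap, so this range is a description and no sign of stability. The count of genes called by edgeR over all tested genes (160) became 425 with DESeq2, 103 with pan-neuronal scaling (added after seeing the data) and 60 to 568 without 1 library, lowest without control replicate 2 and highest without CreER-positive replicate 3 (333 higher and 235 lower, against 36 and 124 with all libraries). Called relatives and partners (3) became 1 with pan-neuronal scaling and 0 to 8 without 1 library. Called neighbours (2) became 1 with pan-neuronal scaling and 1 to 2 without 1 library. Called markers (11) became 6 without both control replicate 2 and CreER-positive replicate 3, and 5 to 17 without 1 library. The cause was not tested. No paired analysis was possible because the labels give no number that pairs animals. Depth limits Cfap58 and Bnc1 most, at 24 to 144 and 39 to 142 counts per library.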
